A study of Homo sapiens with 21 samples.

Results

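The replication-dependent histone genes are the multicopy genes that supply linker histone H1 and the core histones H2A, H2B, H3 and H4 while DNA is copied. They were taken here as every gene whose symbol, matched by Ensembl identifier, starts with H1-1 to H1-5, H2AC, H2BC, H3C or H4C, with pseudogenes left out. The rule found 56 genes among the 37637 features of the count table: 4 H1, 14 H2A, 17 H2B, 10 H3 and 11 H4 genes. HepG2 is a human hepatocellular carcinoma line, and its cells had been held for 24 h in serum-free DMEM with caffeine at 0.01, 0.1, 1, 10, 100 or 1000 µM, or without caffeine as the control. All groups shared the cell line, the withdrawal of serum and the exposure time, and each group had 3 libraries, 21 in all. RNA had been purified on poly(dT) beads before reverse transcription, so the reads counted at these genes come from the RNA that this step kept. HepG2 is a single established line, and nothing in the labels says whether the 3 cultures of a group were started separately, so p-values measure only the spread between these libraries.

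Most replication-dependent histone mRNA has no poly(A) tail. Its 3′ end is a short conserved stem-loop bound by the stem-loop binding protein SLBP, and the cut after it is made by a machinery that contains the U7 small nuclear RNA. A minor share of transcripts from these genes is read through the stem-loop to a downstream poly(A) signal, and replacement histones such as H3-3B are made from ordinary polyadenylated mRNA at all times of the cell cycle. In cycling cells the stem-loop form accumulates in S phase and is destroyed when DNA synthesis stops.

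The stem-loops of 8 members are shown because they mark where the non-polyadenylated form ends. Each sequence is read from the GENCODE 29 transcripts, written 5′ to 3′ with T for U. The 16 bases of the stem-loop are in capitals, with 5 flanking bases in lower case on each side.
H2AC6: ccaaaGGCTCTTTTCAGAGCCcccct
H2BC21: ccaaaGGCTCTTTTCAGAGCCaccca
H3C10: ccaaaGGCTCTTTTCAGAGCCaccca
H2BC15: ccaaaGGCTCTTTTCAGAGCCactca
H2BC4: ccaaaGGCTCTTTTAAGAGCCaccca
H3C6: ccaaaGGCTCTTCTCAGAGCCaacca
H4C14: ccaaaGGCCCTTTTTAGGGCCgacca
H4C5: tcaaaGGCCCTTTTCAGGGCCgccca
H2AC6, H2BC21, H3C10 and H2BC15 carry the same 16 bases, and the H4 genes have another stem. A stem-loop of this form was found in 0.195% of the 83129 protein-coding transcripts of GENCODE 29. In 14 of the 56 members an annotated transcript runs more than 100 bases past the stem-loop and has AATAAA in its last 50 bases, and these members held 60.2% of all member counts. For 13 of these members a protein-coding transcript does so, and for H4C14 only transcripts annotated as subject to nonsense-mediated decay. Of all protein-coding transcripts 0.0902% run more than 100 bases past a stem-loop and have AATAAA in the last 50 bases, while 35.5% have AATAAA in the last 50 bases. The H2AC6 protein-coding transcript that reaches furthest ends 1114 bases after the stem-loop, that of H2BC21 1729 bases, that of H3C10 769 bases and that of H3C6 1862 bases. Another 12 members have a stem-loop without this arrangement and held 21.0% of the counts. For 30 members, H1-2 and H1-4 among them, no annotated transcript reaches a stem-loop of the searched form, and these held 18.8%. These shares are not scaled for annotated exon length, which was for instance 1668 bases for H2AC6 and 642 for H1-2. Counts per gene do not tell which 3′ end a read came from.

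Several H2A and H2B genes start back to back and share 1 promoter region. Of 8 such pairs, 2 are shown because their partners are among the members that differed with dose. The strips lie between the start sites of the genes in RefSeq (GRCh38.p14), are given on the plus strand, and have matches to 3 motifs in capitals on either strand. The motifs are the CCAAT box, searched as CCAAT, the TATA box, searched as TATAAA, and the octamer, searched as ATTTGCAT. Overlapping matches were each counted. The first lies at chr6:26123927-26124171 between H2BC4 (minus strand) and H2AC6 (plus strand), and the second at chr1:149886683-149886917 between H2BC21 (minus strand) and H2AC20 (plus strand).
H2BC4 and H2AC6: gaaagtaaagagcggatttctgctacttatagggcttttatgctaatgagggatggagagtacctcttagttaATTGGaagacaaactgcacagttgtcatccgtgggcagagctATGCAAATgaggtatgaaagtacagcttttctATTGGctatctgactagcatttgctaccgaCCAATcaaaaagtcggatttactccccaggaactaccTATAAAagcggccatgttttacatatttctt
H2BC21 and H2AC20: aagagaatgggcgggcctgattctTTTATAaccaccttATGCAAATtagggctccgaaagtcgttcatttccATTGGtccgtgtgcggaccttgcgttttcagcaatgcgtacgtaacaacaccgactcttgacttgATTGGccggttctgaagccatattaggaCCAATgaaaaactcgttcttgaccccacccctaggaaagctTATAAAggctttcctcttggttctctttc
Each strip holds 3 CCAAT matches and 1 match to the octamer, which is known from H2B promoters. Over the 51 members with a RefSeq promoter, CCAAT stood in the 250 bases before the start of 84.3%, against 33.0% of 27305 promoters. TATAAA stood in 64.7% of member promoters against 11.1%, and ATTTGCAT in 45.1% against 1.66%. ATTTGCAT was found in 10 of 13 H2A and 12 of 16 H2B promoters and in none of the 9 H4 promoters, while CCAAT was found in 1 of the 9 H4 promoters. These matches describe the sequence only.

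Reads at these genes were few. The members took 22481 of 701409631 counts over all libraries, from libraries of 23502519 to 44815552 counts. Of the 56 genes, 53 had at least 1 count, and H2AC25, H2BC10 and H3C1 had none in any library. A filter on low counts kept 23 members among 17951 features for testing and left 33 out. The counts were concentrated: H2AC6 held 24.3% of member counts, H2BC21 17.2%, H1-2 10.9%, H3C10 8.43% and H2BC15 7.95%. H3C14 and H3C15 had identical counts in every library. The pair is taken once in sums and shares of counts but stands as 2 members in counts of members tested or called, so the 23 tested members hold 22 separate measurements. How reads matching several near-identical copies were counted is not given in the sources used here, so values of single copies are uncertain.

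Per kilobase of annotated exon, the mean level over the 21 libraries was 5.52 CPM (counts scaled to a common library total) per kb for the linker histone gene H1-2. It was 4.69 for H2AC6, 2.51 for H2BC21 and 2.20 for H3C10. The same quantity was 72.7 CPM per kb for H3-3B and 33.9 for H3-3A, which encode the replacement histone H3.3. It was 47.8 for H2AZ1 and 27.7 for H2AX. H3-3B, H3-3A, H2AZ1 and H2AX thus each stood above every replication-dependent member in CPM per kb. Annotated lengths may differ from those of the RNA present.

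The libraries fell into 3 sets that the labels do not name. Clustering on the mitochondrial mRNAs placed all control, 0.01 µM and 0.1 µM libraries and 1 µM replicates 1 and 2 in set A. Set B held 1 µM replicate 3, the 10 µM libraries, 100 µM replicate 2 and 1000 µM replicates 1 and 2. Set C held 100 µM replicates 1 and 3 and 1000 µM replicate 3. The mitochondrial share of the counts was 4.72 to 4.94% for set B, against 9.95 to 14.2% for set A and 11.8 to 12.8% for set C. RN7SK, an abundant nuclear RNA without a poly(A) tail, stood at 0.04 to 0.09 CPM among the set C libraries, 0.32 to 5.10 for set B and 5.66 to 132 for set A. No library of 10, 100 or 1000 µM is in set A, so against control the dose and the set cannot be told apart without 1 µM replicate 3, the only library that links set A with set B within a dose. Results are therefore also given from a fit that holds the library set as a further factor (the set-adjusted fit), or within a set. The hepatocyte markers albumin (ALB) and alpha-fetoprotein (AFP) stood at 12469 ± 2556 and 5365 ± 831 CPM in the control (SD, n = 3), while the leukocyte marker PTPRC had a mean of 0.01 CPM there and 0 in each caffeine group.

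The mean summed level of the members was highest at 0.1 µM and lowest at 100 µM. It was 34.3 ± 1.34 CPM in the control (SD, n = 3), 36.4 ± 6.02 at 0.01 µM, 40.1 ± 10.2 at 0.1 µM and 33.5 ± 7.76 at 1 µM. At 10 µM it was 26.1 ± 1.29, at 100 µM 24.7 ± 5.16 and at 1000 µM 31.3 ± 1.65 CPM. All 3 libraries at 10 µM (24.6 to 27.1) and all 3 at 100 µM (18.9 to 28.8) lay below the 3 controls (33.2 to 35.8). With caffeine at 1000 µM the range of 29.5 to 32.7 CPM also lay below the controls. Libraries of 1 dose also differed by set, with no test: at 1 µM replicate 3, of set B, stood at 26.4 CPM, inside the range at 10 µM, and replicates 1 and 2, of set A, at 41.8 and 32.1 CPM. At 100 µM the set B library had 18.9 CPM and the set C libraries 28.8 and 26.4. The spread at 0.1 µM came from replicate 3, which at 51.7 CPM was the highest of the 21 libraries and which also had the highest RN7SK level.

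**Figure D1:**
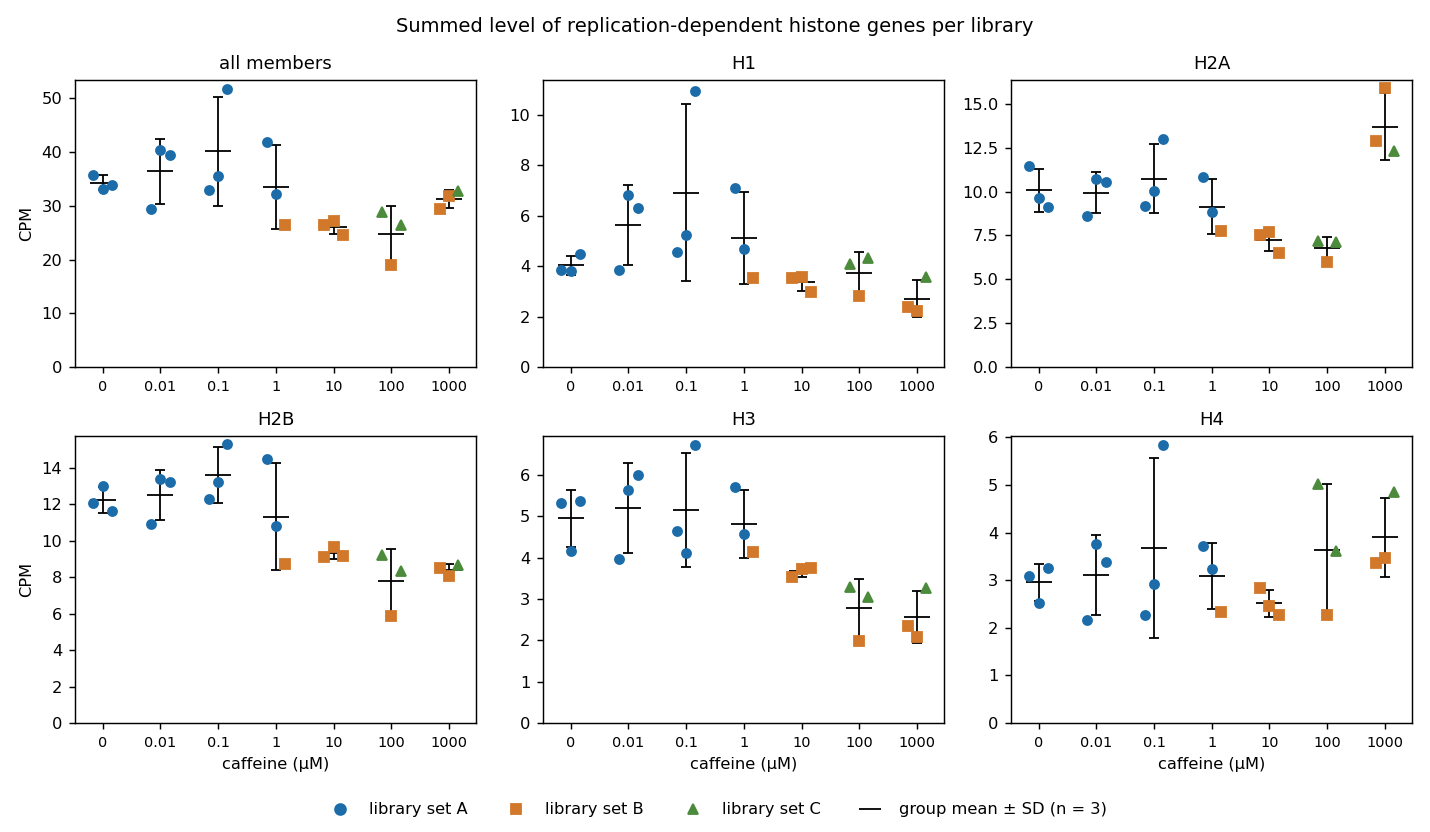
Summed CPM of all members and of each histone family (y axes, from 0) by caffeine dose in µM (x axis); points are libraries, coloured and shaped by library set, and bars are the group mean ± SD (n = 3). The H2A sum lay between 6.01 and 7.20 CPM at 100 µM and between 12.3 and 15.9 at 1000 µM, while the mean H3 sum was lowest at these 2 doses.

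The sums of the families differed in their course. The H2A sum was 10.1 ± 1.22 CPM in the control, 6.77 ± 0.66 at 100 µM and 13.7 ± 1.91 at 1000 µM. The H2B sum was 12.2 ± 0.71, 7.81 ± 1.74 and 8.41 ± 0.30 CPM at the same doses, and the H3 sum 4.95 ± 0.69, 2.78 ± 0.70 and 2.57 ± 0.62 CPM. For H2A the 3 libraries at 1000 µM lay above all controls and for H2B and H3 they lay below them. The H2A rise was that of H2AC6: without this gene the H2A sum was 1.98 ± 0.42 CPM in the control (1.58 to 2.41) and 0.76 ± 0.22 at 1000 µM (0.57 to 0.99), where all 3 libraries lay below the controls. The H1 sum was 4.05 ± 0.38, 3.74 ± 0.81 and 2.72 ± 0.73 CPM, and the H4 sum 2.95 ± 0.39, 3.63 ± 1.38 and 3.90 ± 0.83 CPM.

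No member passed the test at 0.01, 0.1 or 1 µM. By edgeR's quasi-likelihood test, adjusted over 17951 features after Benjamini and Hochberg, 0 of 23 members had an adjusted p under 0.05 at 0.01 µM, where 0.0279% of all features were called. At 0.1 µM 0 members and 0% of features were called, and at 1 µM 0 members and 0.106% of features. At an unadjusted p under 0.05 there were 0, 2 and 0 members, and DESeq2's Wald test called 0 at each of the 3 doses. Shares of all features at this unadjusted threshold are not given here. The 2 members at 0.1 µM were H1-4 (log2 fold change 1.96, adjusted p = 0.46) and H4C5 (1.22, adjusted p = 0.47).

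At 10 µM 1 member was called, H2AC6, which was lower, and 14.8% of all features were called, 7.27% higher and 7.49% lower. At 100 µM 10 of 23 members were called, 2 higher and 8 lower, where 46.6% of features were called, 23.6% higher and 22.9% lower. With H3C14 and H3C15 taken once, 9 of 22 were called there, 2 higher and 7 lower. H4C12, 1 of the 2 higher, passed the filter only through libraries in which it was high. At 1000 µM 6 members were called, 2 higher and 4 lower, where 57.6% of features were called, 28.5% higher and 29.1% lower. The median log2 fold change of the 23 members was −0.44 at 10 µM, −0.55 at 100 µM and −0.50 at 1000 µM, against medians over all features of 0.00, −0.01 and −0.01. In the joint test of the 7 groups 15 of 23 members (14 of 22 with the pair taken once) and 73.6% of features were called. In the set-adjusted fit 0 members were called at 10 µM (0.0279% of features), 1 at 100 µM (H3C10, lower; 17.3% of features), 5 at 1000 µM (38% of features) and 7 in the joint test (59.8% of features). There the medians of the members were 0.09 at 10 µM, 0.06 at 100 µM and 0.64 at 1000 µM, so the sign of the median differed between the fits. Without control replicate 1, 5 members were called at 100 µM, and the share of all features called in that run is not given here. The members passed the filter on their own counts, so these shares do not cover the 33 left out.

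**Figure D2:**
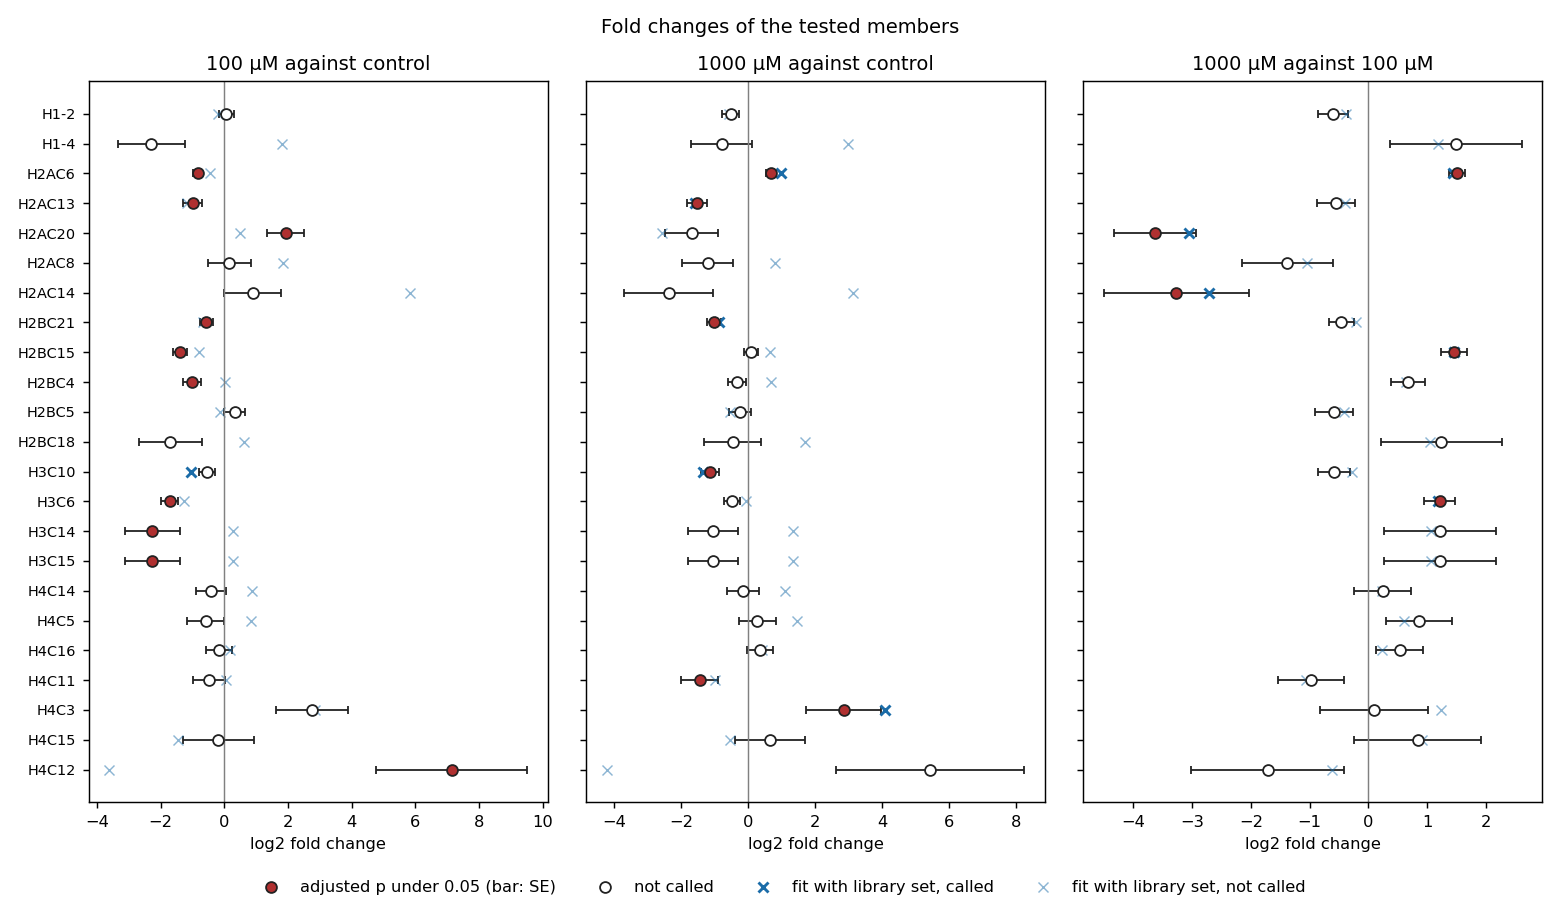
Log2 fold changes (x axes) of the 23 tested members (y axis) for 100 µM and 1000 µM against control and for 1000 µM against 100 µM; circles with SE bars come from the fit without library sets, filled where the adjusted p is under 0.05, and crosses come from the set-adjusted fit. H2AC6 at 1000 µM is right of 0 in both fits, and the crosses of H4C12 and H3C14 at 100 µM lie on the other side of 0 from their circles.

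H2AC6 encodes a core histone H2A and lies at chr6:26124172-26124690 on the plus strand. In the control libraries it stood at 9.05, 8.07 and 7.17 CPM. The 10 µM libraries had 6.23, 6.42 and 5.29 CPM, and the 100 µM libraries 4.61, 4.75 and 4.24. At 1000 µM the values were 12.2, 15.3 and 11.3 CPM. These groups did not overlap: both middle doses lay below every control and the top dose above every library of the other groups. The log2 fold change against control was −0.44 ± 0.14 (SE) at 10 µM, which edgeR's quasi-likelihood test called (adjusted p = 0.039). It was −0.83 ± 0.14 at 100 µM (adjusted p = 8.73e-05) and 0.67 ± 0.14 at 1000 µM (adjusted p = 0.000303). In the set-adjusted fit the change at 1000 µM was 0.98 (adjusted p = 0.00237), whereas those at 10 and 100 µM were −0.19 and −0.46 (adjusted p = 1 and 0.22). The call at 10 µM was also lost when any of 7 single libraries was left out, each 10 µM library among them.

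Between the 2 highest doses, H2AC6 rose by 1.51 ± 0.14 on the log2 scale, a 2.84-fold difference (adjusted p = 6.87e-08, edgeR's quasi-likelihood test). Within set B, from 1 library at 100 µM to 2 at 1000 µM, the change was 1.49, and within set C, from 2 libraries to 1, it was 1.35. Values of this kind are given without a test, here and for the members below, since each has an arm of 1 library. From the 3 libraries at 10 µM to the 2 of the same set at 1000 µM, H2AC6 rose by 1.17 ± 0.12 (adjusted p = 3.41e-06).

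Its divergent partner H2BC4 (chr6:26113170-26123926, minus strand) encodes a core histone H2B. It stood at 1.68, 1.45 and 1.34 CPM in the control, 0.49, 0.77 and 0.97 at 100 µM, and 1.25, 1.20 and 1.08 at 1000 µM. The 100 µM and 1000 µM libraries all lay below the controls. H2BC4 fell at 100 µM (log2 fold change −1.01 ± 0.29, adjusted p = 0.00794, edgeR's quasi-likelihood test), but its change was 0.04 in the set-adjusted fit (adjusted p = 0.98). Its value at 1000 µM was −0.34 ± 0.28 (adjusted p = 0.31), and whether it differs from that of H2AC6 was not tested.

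H2BC15, another H2B gene (chr6:27838569-27839110, plus strand), was lowest at 100 µM. The control libraries had 2.78, 3.32 and 2.38 CPM and the 100 µM libraries 1.46, 1.00 and 0.79. At 1000 µM it stood at 2.86, 3.37 and 2.74 CPM, within the range of the control or just above it. It fell at 100 µM by 1.38 ± 0.22 on the log2 scale (adjusted p = 3.67e-05, edgeR's quasi-likelihood test), and by 0.81 in the set-adjusted fit (adjusted p = 0.14). From 100 to 1000 µM it rose by 1.46 ± 0.22 (adjusted p = 2.17e-05), with values of 1.59 within set B and 1.25 within set C. From 10 to 1000 µM within set B it rose by 0.67 ± 0.17 (adjusted p = 0.00326).

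H3C6 (chr6:26224178-26227473, plus strand) encodes a core histone H3 and had the lowest levels of its 7 groups at 100 µM. It stood at 1.10, 1.12 and 1.57 CPM in the control, 0.30, 0.49 and 0.31 at 100 µM, and 0.79, 0.81 and 1.08 at 1000 µM. No other group reached down to the 100 µM values. At 100 µM its log2 fold change was −1.72 ± 0.26 (adjusted p = 2.37e-05, edgeR's quasi-likelihood test), and −1.27 in the set-adjusted fit (adjusted p = 0.057). From 100 to 1000 µM it rose by 1.22 ± 0.26 (adjusted p = 0.000937). The value was 1.81 within set C and 0.67 within set B.

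**Figure D3:**
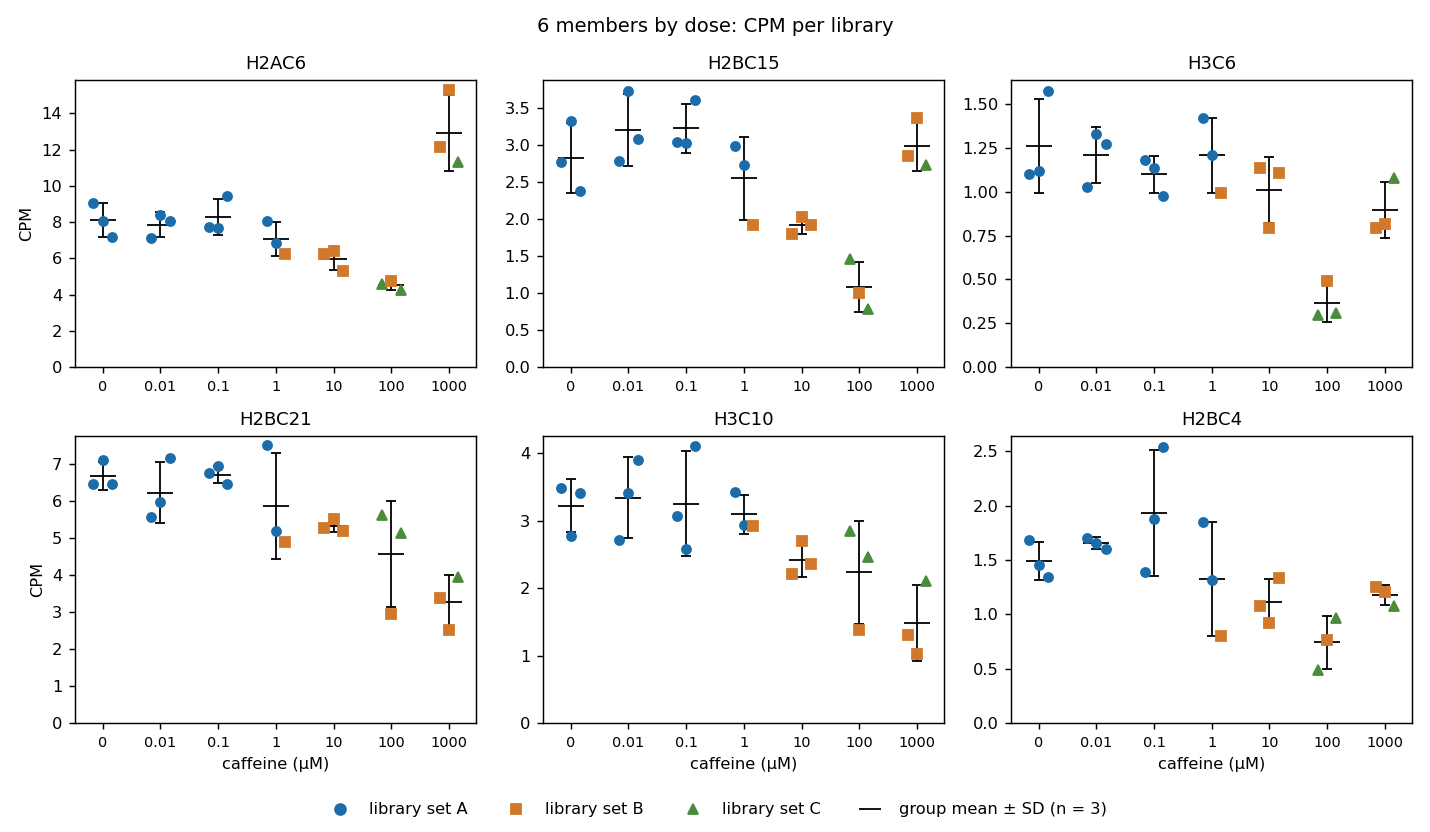
CPM per library (y axes, from 0) by caffeine dose in µM (x axes) for 6 members; colours and shapes give the library set, and bars the group mean ± SD (n = 3). H2AC6, H2BC15 and H3C6 are lowest at 100 µM, whereas H2BC21 and H3C10 are lowest at 1000 µM.

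H2BC21 and H3C10 had their lowest group means at the top dose, but neither was called between 100 and 1000 µM. H2BC21 (chr1:149884459-149886682, minus strand), an H2B gene, had 6.45, 7.09 and 6.44 CPM in the control, 5.62, 2.94 and 5.12 at 100 µM, and 3.37, 2.52 and 3.94 at 1000 µM. Every library at 1000 µM lay below every control. Within set B H2BC21 had 2.94 CPM at 100 µM and 3.37 and 2.52 at 1000 µM. Within set C it had 5.62 and 5.12 CPM at 100 µM and 3.94 at 1000 µM. It fell at 1000 µM by 1.03 ± 0.21 on the log2 scale (adjusted p = 0.000327, edgeR's quasi-likelihood test) and by 0.87 in the set-adjusted fit (adjusted p = 0.014). At 100 µM its change was −0.57 ± 0.20 (adjusted p = 0.030), and −0.66 in the set-adjusted fit, where it was not called (adjusted p = 0.12). From 10 to 1000 µM within set B it fell by 0.86 ± 0.15 (adjusted p = 0.00021).

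H3C10 (chr6:27810051-27810536, plus strand), an H3 gene, had 3.48, 2.78 and 3.41 CPM in the control, 2.85, 1.39 and 2.47 at 100 µM, and 1.30, 1.03 and 2.11 at 1000 µM. The top dose lay below the controls, with the set C library the highest of the 3. It fell at 1000 µM by 1.13 ± 0.27 on the log2 scale (adjusted p = 0.00126, edgeR's quasi-likelihood test) and by 1.34 in the set-adjusted fit (adjusted p = 0.00343). At 100 µM the change was −0.55 ± 0.26 (adjusted p = 0.090), and −1.06 in the set-adjusted fit (adjusted p = 0.042). From 10 to 1000 µM within set B it fell by 1.06 ± 0.20 (adjusted p = 0.000494).

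H2AC13 (chr6:27808173-27808667), an H2A gene, fell at both high doses. It had 1.22, 0.86 and 0.88 CPM in the control, 0.45, 0.41 and 0.66 at 100 µM, and 0.38, 0.21 and 0.41 at 1000 µM. Both groups lay below the controls, and the changes were −0.99 ± 0.29 (adjusted p = 0.00847) and −1.54 ± 0.30 (adjusted p = 0.000228, edgeR's quasi-likelihood test). In the set-adjusted fit they were −1.18 (adjusted p = 0.13) and −1.58 (adjusted p = 0.018). H4C11, an H4 gene, fell at 1000 µM by 1.45 ± 0.54 (adjusted p = 0.027), a call that was lost in the set-adjusted fit (adjusted p = 0.43), as it was on leaving out any of 4 libraries, controls 1 and 3 and 1000 µM replicates 1 and 3.

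Of the H1 genes, H1-2 (chr6:26055740-26056470, minus strand) held most counts. It had 3.18, 3.40 and 3.68 CPM in the control, 3.94, 2.64 and 4.28 at 100 µM, and 1.76, 1.98 and 3.44 at 1000 µM. The 1 library at 1000 µM inside the control range is that of set C. Against control the value at 1000 µM was −0.53 ± 0.26 (adjusted p = 0.083, edgeR's quasi-likelihood test), and from 10 to 1000 µM within set B it fell by 0.76 ± 0.18 (adjusted p = 0.00206).

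In that comparison within set B, 7 of 15 tested members were called, 3 higher (H2AC6, H2BC15, H4C5) and 4 lower (H2BC21, H1-2, H2AC13, H3C10). The call of H2AC13 (−1.10 ± 0.37, adjusted p = 0.020, edgeR's quasi-likelihood test) was lost without 10 µM replicate 1 or 1000 µM replicate 2. Of 17090 features 69.1% were called, 34.1% higher and 35% lower. H4C5 had 0.06, 0.18 and 0.26 CPM at 10 µM and 0.61 and 0.67 in the 2 libraries at 1000 µM, a rise of 1.90 ± 0.46 (adjusted p = 0.00284, edgeR's quasi-likelihood test). RN7SK rose by 3.44 ± 0.22 in the same comparison (adjusted p = 3.06e-08, edgeR's quasi-likelihood test). Its part in the results for H4C5, H2AC6 and the other called members was not tested. Over the 11 libraries of set A the rank correlation of H4C5 with RN7SK was 0.85, and that of H2AC6 0.65.

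From 100 to 1000 µM, 5 of 23 members were called, where 44% of features were called, 21.8% higher and 22.3% lower. Without 1000 µM replicate 3, 9 members were called, and the share of all features called in that run is not given here. The 3 that rose were H2AC6, H2BC15 and H3C6, described above, and the 2 that fell were H2AC20 and H2AC14. H2AC20 (chr1:149886918-149887411, plus strand), the divergent partner of H2BC21, had 0.28, 0.23 and 0.15 CPM in the control, 1.20, 0.36 and 1.10 at 100 µM, and 0.05, 0.04 and 0.12 at 1000 µM. The 2 high libraries at 100 µM are those of set C. H2AC20 rose at 100 µM by 1.93 ± 0.58 on the log2 scale (adjusted p = 0.010, edgeR's quasi-likelihood test), by 0.49 in the set-adjusted fit (adjusted p = 0.81), and the call was lost without 100 µM replicate 1. From 100 to 1000 µM it fell by 3.63 ± 0.70 (adjusted p = 0.000344), with values of −2.97 within set B and −3.16 within set C. H2AC14 went from 10, 5 and 7 counts at 100 µM to 0, 0 and 2 at 1000 µM (adjusted p = 0.037, edgeR's quasi-likelihood test), a call that leaving out 100 µM replicates 1 or 3 or 1000 µM replicates 1 or 2 ended.

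H4C12 and H4C3, both H4 genes, were high in the set C libraries. H4C12 had 0 counts in all controls, which allows up to 0.03 CPM (3 counts over the 3 libraries), 29, 0 and 13 counts at 100 µM, and 0, 0 and 13 at 1000 µM. It passed the filter through these libraries. Since the filter kept it for these high values, nothing is read from its call at 100 µM. That call was not made by DESeq2's Wald test, ended on leaving out controls 1 or 2 or 100 µM replicate 1, and the sign turned in the set-adjusted fit. H4C3 had 0.15, 0.08 and 0.15 CPM in the control, 1.31, 0.04 and 1.37 at 100 µM, and 0.26, 0.50 and 2.11 at 1000 µM. The set C libraries (1.31 to 2.11 CPM) lay above all others, namely those of set B (0.03 to 0.50 CPM) and of set A (0.05 to 0.91 CPM). It rose at 1000 µM by 2.85 ± 1.12 (adjusted p = 0.038), by 4.08 in the set-adjusted fit (adjusted p = 0.039), and by 1.52 and without a call when 1000 µM replicate 3 was left out. Leaving out any 1 control also ended this call.

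H1-4, a linker histone gene, had its highest values in set A. It ranged from 0.04 to 0.15 CPM for set C, 0.15 to 0.61 for set B and 0.38 to 4.76 for set A. H3C14 had 0.46, 0.18 and 0.31 CPM in the control and 0.07, 0.06 and 0.04 at 100 µM. The change of H3C14 and H3C15 was −2.26 ± 0.86 (adjusted p = 0.037, edgeR's quasi-likelihood test), and 0.28 in the set-adjusted fit (adjusted p = 0.94). It was no longer called without controls 1 or 3 or without any 1 of the 100 µM libraries.

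Within set A, where RN7SK spanned 5.66 to 132 CPM over 11 libraries, the level of each tested member was set against that of RN7SK. For H1-4, Spearman's rho was 0.94 (permutation p = 5e-05) and Pearson's r 0.97 (permutation p = 1e-05, the smallest that 100000 permutations can give). Without the 2 libraries farthest from the median of RN7SK, r was 0.91. For H3C14 rho was 0.93 (permutation p = 7e-05) and r 0.93 (permutation p = 0.00025), or 0.85 without these 2 libraries. Of the other members, chosen after their values were seen, rho was 0.94 for H2BC18, 0.88 for H4C3, 0.85 for H4C5 and 0.82 for H4C14, whereas it was −0.64 for H4C15. Among the members with most counts, rho was 0.65 for H2AC6 (permutation p = 0.033), 0.68 for H3C10 (permutation p = 0.024) and 0.63 for H1-2 (permutation p = 0.044). Their r was 0.65, 0.70 and 0.93, or 0.26, 0.52 and 0.58 without the same 2 libraries. For H2BC15 rho was 0.38 (permutation p = 0.25). For H2BC21 rho was 0.22 (permutation p = 0.52) and r 0.07 (permutation p = 0.83), and for H3C6 rho was 0.17 (permutation p = 0.61) and r −0.24 (permutation p = 0.47). Of 23 members 14 had an unadjusted permutation p of rho under 0.05 (13 positive), or 60.9%, against 3.81% of 17950 features. With H3C14 and H3C15 taken once these were 13 of 22, 12 of them positive. After adjustment over all 17950 features no member and 0% of features had an adjusted permutation p under 0.05, with 0.12 for H2BC18 and 0.14 for both H1-4 and H3C14. The set A libraries cover 4 doses, and the part of non-polyadenylated RNA in the histone counts was not tested. RN7SK was the 1 tested gene of a list of 12 such RNAs, of which 4 were in the table.

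Genes that act beside the histones were taken from lists by known function. Of 24 genes of DNA synthesis in S phase, 24 rose at 100 µM (median log2 fold change 0.86), among them RRM2, a subunit of ribonucleotide reductase (1.08 ± 0.06), and GINS1 and GINS2 of the replicative helicase (1.62 ± 0.13 and 1.69 ± 0.13). At 1000 µM 16 fell and 3 rose (median −0.58), with PCNA, the sliding clamp, at −0.94 ± 0.09. In the set-adjusted fit 20 rose at 100 µM, and 13 fell and 2 rose at 1000 µM, against 17.3% and 38% of features called. The lists were chosen with earlier results of these data known, and 46.6% and 57.6% of all features were called at these doses.

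Of 18 tested genes of the histone locus body and stem-loop processing, 10 rose and none fell at 100 µM, and 5 rose and 6 fell at 1000 µM, where 46.6% and 57.6% of all features were called. With the library set as a factor 5 rose at 100 µM, and 3 rose and 2 fell at 1000 µM, against 17.3% and 38% of features called. ZNF473, a zinc finger protein of U7-dependent processing, rose by 0.97 ± 0.10 and 1.68 ± 0.10 on the log2 scale (adjusted p = 3.15e-07 and 6.92e-11, edgeR's quasi-likelihood test). SLBP stood at 60.3 ± 7.16 CPM in the control, 67.0 ± 1.36 at 100 µM and 42.2 ± 3.37 at 1000 µM (SD, n = 3). Its fall at 1000 µM was 0.52 ± 0.08 on the log2 scale (adjusted p = 3.29e-05), 0.56 in the set-adjusted fit and 0.36 from 10 to 1000 µM within set B. At 100 µM SLBP was not called (0.15 ± 0.08, adjusted p = 0.14). NPAT, the coactivator of histone gene transcription, was not called at either dose (−0.12 ± 0.11 and −0.13 ± 0.11). CASP8AP2, which takes part in histone pre-mRNA processing, rose by 0.41 ± 0.14 at 100 µM (adjusted p = 0.024) and was at −0.24 ± 0.14 at 1000 µM (adjusted p = 0.16). In the set-adjusted fit the value of CASP8AP2 at 100 µM was 0.54 and not called (adjusted p = 0.14).

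Of 8 genes of histone mRNA decay and translation, 3 rose and 3 fell at 100 µM, and 2 rose and 2 fell at 1000 µM, where 46.6% and 57.6% of all features were called. The set-adjusted fit had 1 that rose and 1 that fell at 100 µM, and 3 and 1 at 1000 µM, where it called 17.3% and 38% of features. The exonuclease gene XRN1 rose at both doses, by 0.56 ± 0.15 and 1.40 ± 0.15 (adjusted p = 0.00445 and 1.47e-07, edgeR's quasi-likelihood test). Its value at 100 µM was 0.67 in the set-adjusted fit and not called (adjusted p = 0.051). ERI1, the exonuclease that binds the histone stem-loop, fell by 0.44 ± 0.11 and 0.53 ± 0.11 (adjusted p = 0.00318 and 0.000497). The uridylyltransferase gene TUT7 fell by 0.86 ± 0.12 and 0.51 ± 0.12, and in the set-adjusted fit neither fall was called (adjusted p = 0.094 and 0.41). Of 14 polyadenylation factors, 3 rose and 4 fell at 100 µM and 5 rose and 5 fell at 1000 µM, where 46.6% and 57.6% of all features were called. Of these 1 rose at 100 µM, and 3 rose and 2 fell at 1000 µM, in the set-adjusted fit.

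Of 12 tested genes listed as replacement histones, H2AX among them, 8 rose and 1 fell at 100 µM (median log2 fold change 0.86). At 1000 µM 7 rose and 3 fell (median 0.83). At these doses 46.6% and 57.6% of all features were called. In the set-adjusted fit 7 rose at 100 µM, and 5 rose and 2 fell at 1000 µM, against 17.3% and 38% of features. CENPA, the centromeric H3, rose by 1.77 ± 0.12 and 1.41 ± 0.12 on the log2 scale at 100 and 1000 µM, and MACROH2A1 by 0.87 ± 0.07 and 0.69 ± 0.07.

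Of 19 histone chaperones, 11 rose and 2 fell at 100 µM, and 7 rose and 7 fell at 1000 µM, beside the same 46.6% and 57.6% of all features. The set-adjusted counts were 8 and 1 at 100 µM, and 4 and 5 at 1000 µM, beside 17.3% and 38%. SSRP1, a subunit of the chaperone FACT, rose by 1.49 ± 0.07 and 1.23 ± 0.07 (adjusted p = 9.03e-12 and 1.67e-11, edgeR's quasi-likelihood test). CHAF1B, a subunit of the assembly factor CAF-1, rose at 100 µM by 1.22 ± 0.12. CABIN1 and DAXX, which act with the replacement histone H3.3, fell at 1000 µM by 1.69 ± 0.11 and 1.22 ± 0.13. From 100 to 1000 µM they were at −0.90 and −0.65. HIRA, UBN1 and ATRX of the same list were not called between these doses (0.0005, −0.01 and 0.17). From 10 to 1000 µM within set B, CABIN1 fell by 1.65 ± 0.06 and DAXX by 0.94 ± 0.06, while SSRP1 rose by 0.92 ± 0.05.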

How the data were processed

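The authors deposited unnormalized whole-number read counts for each feature. The submitters' processing notes name HISAT2, DESeq2 and GRCh38. The counting tool, annotation and use of strand are not given in the sources used here. Per the file's columns, 21 other per-sample columns were not used. Symbols were matched by Ensembl identifier. The members, the gene lists and the rule for named genes were chosen with earlier results of these data known. That rule took up to 3 members per family by mean CPM, the called members with the 3 largest rises and falls per comparison (all where 6 or fewer), up to 3 called genes of smallest p per list at 100 and 1000 µM, and SLBP, NPAT and CASP8AP2. A gene this rule named is not reported here.

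Features passing edgeR's filterByExpr (minimum count 10) were tested in 1 fit over 21 libraries by the quasi-likelihood F-test (edgeR 4.0.16, R 4.3.3), with TMM scaling, a mean per group and 2-sided p-values adjusted over 17951 features. A member or feature was called at an adjusted p under 0.05. The SE is the fold change over the square root of F. CPM used TMM-scaled library sizes. Library sets came from average-linkage clustering of centred log2 mitochondrial mRNA counts (3 sets, highest mean silhouette, 0.571). Fits were tested on simulated data. Same-numbered replicates did not deviate together. No 2 replicates agreed within counting noise (lowest chi-square per feature 3.39 over 21 pairs). Alternatives were DESeq2 1.42.0, other filters and scaling, a replicate block, the set term, smaller fits and leaving out each library. The floor of 3 counts covers counting error only, since reads lack molecular identifiers. Coordinates and promoters are RefSeq's (GRCh38.p14).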

Additional observations from a re-analysis of the deposited data

How the results depend on the processing

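At 0.01, 0.1 and 1 µM the count of called members was 0 in every alternative run, also within set A alone. Leaving out 1 library at a time gave 0 to 2 calls at 10 µM (against 1), 5 to 12 at 100 µM (10; 5 without control replicate 1), 4 to 8 at 1000 µM (6; 4 without control 1 or 3), 4 to 9 from 100 to 1000 µM (5; 9 without 1000 µM replicate 3), 12 to 16 in the joint test (15) and 6 to 8 within set B (7). At 10 µM the count was 0 without a filter, 0 with the set term, 3 with only the 2 groups in the fit and 2 by DESeq2's Wald test. With the set term the counts were 1 at 100 µM and 7 in the joint test. With a mean of at least 5 CPM only 2 members (1 within set B) were left to test: 2 were called at 100 µM, 2 at 1000 µM, 1 from 100 to 1000 µM, 2 in the joint test and 1 within set B. DESeq2's size factors gave the same counts of member calls as the main scaling in each comparison. With the set term at 100 µM the log2 fold change of H4C12 turned to −3.61 and that of H3C14 and H3C15 to 0.28. The set term rests on 1, 100 and 1000 µM, the doses that span 2 sets. Replicate numbers did not pair the samples: in 0 of 21 pairs of groups did every same-numbered pair correlate above 0.1 (mean −0.18 to 0.17). With the replicate number as a block, 8 members were called at 100 µM (10 without) and 14 in the joint test, and the counts of the other comparisons run with the block were the same. It was not run within set B. The set C comparisons of 100 and 1000 µM were added after seeing the data, as were those of these doses in set B. Apart from the set-adjusted fit, the shares of all features called in the alternative runs are not given here. These counts thus do not show whether the members alone moved. Low counts limit the precision: 33 of 56 members could not be tested.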

Other observations

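The rule left out 6 pseudogenes, of which H2BC20P and H2BC19P had most reads. The group means of the other 4 ranged from 0 to 0.02 CPM. H2BC20P stood at 7.64 ± 1.11 CPM in the control, 5.51 ± 0.75 at 100 µM and 5.60 ± 0.40 at 1000 µM (SD, n = 3), and H2BC19P at 4.72 ± 0.73, 3.18 ± 0.79 and 2.73 ± 0.36 CPM. How reads shared with the H2B members were counted is not given in the sources used here.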
